A study of Mus musculus with 6 samples.

Results

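Mitophagy is the removal of damaged or surplus mitochondria by autophagy, and Pink1 and its receptor genes set when a mitochondrion is recognised and how it is tethered to the autophagic membrane. The kinase Pink1 builds up on mitochondria that have lost their membrane potential, phosphorylates ubiquitin and recruits the ubiquitin ligase Parkin, and soluble receptors such as Sqstm1 and Optn then bind the ubiquitin chains together with Atg8 proteins of the autophagosome. Bnip3, Bnip3l and Fundc1 sit in the outer mitochondrial membrane and bind Atg8 proteins themselves, with no need for ubiquitin, and Bnip3 and Bnip3l are known as genes induced by low oxygen and during differentiation.

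The 10 genes are Pink1, Fbxo7, Sqstm1, Optn, Tax1bp1, Nbr1, Bnip3, Bnip3l, Fundc1 and Phb2, matched by symbol among the 42365 genes of a table of RNA-seq counts, and every one of them passed the filter on low counts. RNA was taken from a mouse line of neural progenitors (NPC), cells that can form neurons and glia, and was sequenced to set cells with a knockout of PARKIN, the ligase that Pink1 recruits, against wild-type cells. Knockout clone 1 and knockout clone 2 (genotype KO) each gave 2 libraries, and the parental cells (genotype WT, titled parental clone 1 and clone 2) gave 2. All groups share the same cell line, each knockout group is 1 clone, and the sources used here do not give the edited part of the gene, the age of the cultures or whether libraries of a group came from separate cultures. Where single libraries are compared, p-values therefore measure only the spread between these libraries, and that spread may be technical.

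The libraries held 60924858 to 69530032 counts in the clones and 58871554 and 63879208 in parental cells. Levels are given as CPM, counts scaled to library sizes normalised by TMM. A value after ± is the SE of a log2 fold change, or, for a level, the SD of a group (n = 2 libraries). Of 12 markers of neural progenitors, 11 had at least 1 CPM in every library, all but Prom1. In labelled knockout over parental, 5 of the 12 were higher, 4 lower and 3 not called. Sox1 averaged 3.35 ± 0.145 CPM in clone 1, 3.17 ± 0.239 CPM in clone 2 and 60.5 ± 0.0826 CPM in parental cells (SD, n = 2 each), and Sox9 and Msi1 also fell, while Fabp7, Hes1 and Nes rose and Sox2 was not called (-0.15, adjusted p = 0.252). Other cell type markers moved with the groups too. The summed level of 12 astrocyte markers was 4145 to 6053 CPM in labelled knockout and 12417 to 12649 CPM in parental libraries. Of these 12, 1 was higher, 6 were lower and 5 were not called. Gfap (1.59 CPM in clone 1, 9.70 CPM in clone 2 and 2691 CPM in parental cells) and Apoe (287, 240 and 2821 CPM) made up much of that difference. Mean levels of S100b, Slc1a2 and Glul were higher in both clones than in parental cells, although only 1 of the 12 was called as higher. Taken by clone against parental cells, Slc1a2 was called in clone 2 (0.57, adjusted p = 5.91e-09) but not in clone 1 (0.08, adjusted p = 0.131). The summed level of 10 proliferation markers was 771 to 1197 CPM in labelled knockout and 63.9 to 64.2 CPM in parental libraries. All 10 were called as higher, with a median log2 fold change of 5.86. For 8 oligodendrocyte lineage markers the sums were 5243 to 6454 CPM in labelled knockout and 1290 and 1292 CPM in parental libraries. Of these 8, 3 were higher, 2 were lower and 3 were not called. For 10 neuron markers the sums were 1070.0 to 1545 CPM in labelled knockout and 1112 and 1123 CPM in parental libraries. Map2 made up most of that neuron sum, at 1403 CPM on average in clone 1, 1035 CPM in clone 2 and 974.7 CPM in parental cells. Of the 10 neuron markers 5 fell, among them Dcx by 2.80 on the log2 scale, and none was called as higher; the median over the 10 was -1.92. Microglia markers were under 1 CPM for 7 of 8 genes in every library, and 8 fibroblast and vascular markers summed to 2.01 to 4.82 CPM in labelled knockout and 3.70 and 3.80 CPM in parental libraries. The part of these shifts in the results below was not tested, and in bulk RNA fewer cells of a type and less RNA per cell cannot be told apart.

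Pink1 and Sqstm1 had the largest falls of the 10 genes and Bnip3 the largest rise, so the stretch upstream of the start of each is shown. The sequences are the 250 bases before the RefSeq transcription start in GRCm38.p6, on the gene's own strand, at chr4:138326297-138326546 (minus strand) for Pink1, chr11:50210821-50211070 (minus strand) for Sqstm1 and chr7:138909507-138909756 (minus strand) for Bnip3. Capitals mark matches to any of 4 short motifs that were searched on both strands.
Pink1 upstream stretch: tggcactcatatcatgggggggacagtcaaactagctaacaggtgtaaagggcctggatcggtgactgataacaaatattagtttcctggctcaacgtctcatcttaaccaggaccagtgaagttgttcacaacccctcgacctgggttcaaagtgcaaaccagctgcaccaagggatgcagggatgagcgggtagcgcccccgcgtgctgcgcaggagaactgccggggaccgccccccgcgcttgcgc
Sqstm1 upstream stretch: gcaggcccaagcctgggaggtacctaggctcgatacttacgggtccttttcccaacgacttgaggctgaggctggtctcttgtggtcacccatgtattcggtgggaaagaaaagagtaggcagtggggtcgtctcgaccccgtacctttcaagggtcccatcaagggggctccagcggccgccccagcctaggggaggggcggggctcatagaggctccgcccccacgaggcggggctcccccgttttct
Bnip3 upstream stretch: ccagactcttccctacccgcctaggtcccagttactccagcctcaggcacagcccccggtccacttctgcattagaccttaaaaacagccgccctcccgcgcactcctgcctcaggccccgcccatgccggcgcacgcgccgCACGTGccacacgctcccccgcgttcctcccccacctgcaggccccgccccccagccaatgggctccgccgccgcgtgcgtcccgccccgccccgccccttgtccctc

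The motifs were ACGTG (the core of the HIF binding site), CACGTG (an E-box, the core of the site of TFEB, which contains ACGTG on both strands), TGACNNNGC (the antioxidant element of NRF2) and GTAAACA (the FOXO core). RefSeq promoters of 300 bases, from 250 before the start to 50 after it, were found for 9 of the 10 genes, all but Bnip3l, in 12 entries. ACGTG was present in promoters of 5 of the 9 genes (Fbxo7, Tax1bp1, Nbr1, Bnip3 and Phb2), and in 19.6% of all 32851 mouse promoters. The shares over all promoters, here and below, count entries, whereas a gene counts if any of its entries matched. Fbxo7, Tax1bp1 and Nbr1 each had 2 entries and a match in only 1 of them, so the counts of genes and the shares differ in unit. CACGTG was in those of Fbxo7 and Bnip3 (7.2% of all promoters), and in Bnip3 it began 108 bases before the start. TGACNNNGC was in that of Tax1bp1 (12.4% of all promoters), and GTAAACA in 0 of the 9 (3.6% of all promoters). Pink1, Sqstm1, Optn and Fundc1 had no match to any of the motifs in these windows. The genes with ACGTG include Bnip3, which rose, Fbxo7 and Tax1bp1, which fell, and Nbr1 and Phb2, which did not pass the test.

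A second set of sequences bears on how far the counts of Bnip3 and Bnip3l can be trusted. Both genes have processed pseudogenes, copies made from their spliced RNA, that are nearly identical to them and have counts of their own in the table. The first 60 coding bases of each gene are shown beside the best matching stretch of 1 copy, from GENCODE transcripts of GRCm38. The Bnip3 copy shown, Gm9419, held only 35 counts over all libraries, against 1171 for AC160336.1 and 951 for Gm6532, which are not shown. Capitals mark the base at which the copy differs from the gene. Bnip3 lies at chr7:138890836-138909519 (minus strand), Gm9419 at chr3:144727884-144728450 (plus strand), Bnip3l at chr14:66985239-67008877 (minus strand) and Bnip3l-ps at chr12:18216542-18217673 (plus strand).
Bnip3 stretch: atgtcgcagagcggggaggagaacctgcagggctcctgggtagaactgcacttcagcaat
Gm9419 stretch: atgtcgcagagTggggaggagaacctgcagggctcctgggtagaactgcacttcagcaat
Bnip3l stretch: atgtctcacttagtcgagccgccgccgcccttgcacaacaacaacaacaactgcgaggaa
Bnip3l-ps stretch: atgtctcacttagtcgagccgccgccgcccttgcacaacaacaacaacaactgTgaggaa

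Of the 1707 windows of 50 bases along the main Bnip3 transcript, 15.6% were also present in a copy, and of the 3189 windows of Bnip3l, 25.1%. The 4 copies of Bnip3 with counts (AC160336.1, Gm6532, Gm9419 and Gm14506) together held 15.6% and 21.2% as many counts as Bnip3 in clone 1, 21.9% and 17.5% in clone 2, and 30.5% and 29.6% in parental libraries. Bnip3l-ps held 4.71% to 5.61% as many counts as Bnip3l in labelled knockout libraries and 5.32% and 6.35% in parental ones. The sources used here do not give how reads that map to several places were counted, so some reads of these genes may stand under their copies or the reverse.

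Labelled knockout cells had less RNA of Pink1, of its partner Fbxo7 and of the ubiquitin-binding receptors Sqstm1, Optn and Tax1bp1, and more RNA of the outer membrane receptors Bnip3 and Bnip3l. Pink1 fell by 2.33-fold and Sqstm1 by 2.02-fold, while Bnip3 rose by 2.56-fold and Bnip3l by 1.78-fold. Nbr1, Fundc1 and Phb2 did not pass the test. With the 2 clones as replicates against the 2 parental libraries (edgeR's quasi-likelihood test, Benjamini-Hochberg adjusted p under 0.05 over 24506 genes), 2 of the 10 genes were higher and 5 lower. Over all genes tested 26.7% were called, 13.0% as higher and 13.6% as lower. The median log2 fold change of the 10 genes was -0.27, against 0.03 for all genes, and the median size regardless of sign was 0.73, against 0.44. Of the 7 calls, 4 were lost when a parental library was left out: without parental library 1 there were 2 higher and 2 lower, and without parental library 2 there were 1 higher and 2 lower, with Pink1, Sqstm1 and Bnip3 called each time. The log2 fold changes of the 4 genes moved little, and a fit with a library fewer has fewer residual degrees of freedom. Over all genes there were 6532 calls with every library, 2544 without parental library 1 and 2529 without parental library 2.

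**Figure D1:**
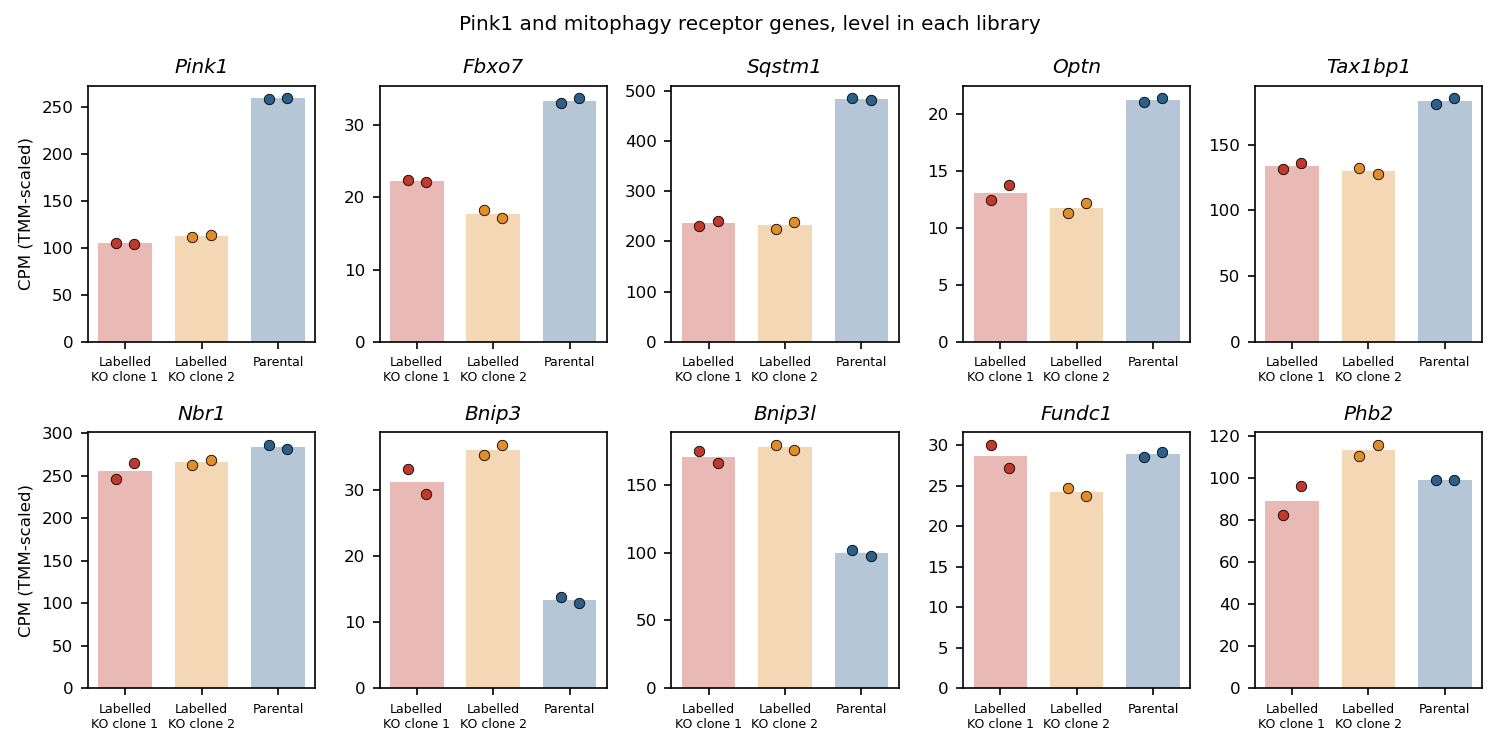
Level of each of the 10 genes in CPM (TMM-scaled, linear axes from 0), with a point for each library and a bar for the mean of the 2 libraries of labelled knockout clone 1, labelled knockout clone 2 and parental cells. The 4 labelled knockout libraries lie below both parental libraries for 6 genes and above them for Bnip3 and Bnip3l, and the groups overlap for Fundc1 and Phb2.

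In 8 of the 10 genes all 4 labelled knockout libraries lay outside the range of the parental pair, 6 of them below it and 2 above it. The same held for 56.6% of all genes tested, 27.0% above and 29.6% below, so the separation by itself does not set the 10 genes apart from the rest.

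Pink1, the kinase that starts the ubiquitin-dependent route, is encoded at chr4:138313409-138326307 (GRCm38, minus strand). It stood at 105 and 104 CPM in clone 1, 112 and 113 CPM in clone 2, and 259 and 259 CPM in the parental libraries. All labelled knockout libraries were low, within 9 CPM of each other, and none came near the parental level. This was a log2 fold change of -1.22 ± 0.09 (SE; adjusted p = 8.86e-04), and 19.3% of all genes tested had a larger one in size. It was -1.31 ± 0.042 in clone 1 and -1.20 ± 0.041 in clone 2, each against the same parental libraries. Leaving out either parental library kept the call, with an adjusted p of 0.00744 without library 1 and 0.00674 without library 2.

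Fbxo7, an F-box adaptor of ubiquitin ligases that in human cells binds both Pink1 and Parkin, was at 22.4 and 22.2 CPM in clone 1, 18.2 and 17.1 CPM in clone 2, and 33.0 and 33.7 CPM in parental libraries. Both clones were low, and clone 2 was the lower of them. Its log2 fold change was -0.71 ± 0.14 (adjusted p = 0.0185), and the call was lost at nearly the same size without parental library 1 (-0.72, adjusted p = 0.143) or library 2 (-0.69, adjusted p = 0.155). The gene overlaps the antisense transcript A230060F14Rik, which held 0.834% as many counts. The strand setting of the counting is not stated, so reads of overlapping genes on opposite strands cannot be told apart.

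Among the ubiquitin-binding receptors, Sqstm1 had the highest level and the largest fall. Sqstm1 encodes p62, which gathers ubiquitin-coated cargo into clusters, at chr11:50199366-50210827 (minus strand). It stood at 231 and 241 CPM in clone 1, 225 and 239 CPM in clone 2, and 485 and 481 CPM in parental libraries. The clones shared 1 low level and the parental pair 1 high level. On the log2 scale the difference was -1.01 ± 0.083 (adjusted p = 0.00118), and it stayed called without parental library 1 (adjusted p = 0.0201) and without library 2 (adjusted p = 0.0171). Mrnip, a gene on the opposite strand that shares exon bases with it, held 0.928% as many counts.

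Optn encodes optineurin, a receptor that works with the kinase Tbk1 and is central to Parkin-dependent mitophagy in human cells. Its level was 12.4 and 13.7 CPM in clone 1, 11.3 and 12.2 CPM in clone 2, and 21.1 and 21.4 CPM in parental libraries, so both clones lay below both parental libraries, with clone 2 just under clone 1. The log2 fold change was -0.74 ± 0.12 (adjusted p = 0.0101). It was -0.75 without parental library 1 (adjusted p = 0.144) and -0.73 without library 2 (adjusted p = 0.152), so the call was lost while the size hardly moved. Counts of the antisense gene 4930551O13Rik were 2.40% of those of Optn.

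Tax1bp1, a receptor related to the coiled-coil receptor Calcoco2, had 132 and 136 CPM in clone 1, 132 and 128 CPM in clone 2, and 181 and 185 CPM in parental libraries. The clones lay close together and below both parental libraries. The difference on the log2 scale was -0.44 ± 0.081 (adjusted p = 0.0156), and it was -0.45 without parental library 1 (adjusted p = 0.259) and -0.43 without library 2 (adjusted p = 0.287). Nbr1, which shares its domain plan with Sqstm1 and gathers ubiquitin-coated cargo with it, had 246 and 265 CPM in clone 1, 263 and 269 CPM in clone 2, and 287 and 281 CPM in parental libraries. Its 4 labelled knockout libraries lay below the parental pair, but by little. The log2 fold change was -0.09 ± 0.085, with a 95% interval of -0.30 to 0.12 (adjusted p = 0.486), an interval that excludes a fall as large as that of Sqstm1.

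The outer membrane receptors went the other way or did not pass. Bnip3 was at 33.2 and 29.4 CPM in clone 1, 35.3 and 36.9 CPM in clone 2, and 13.9 and 13.0 CPM in parental libraries. Every labelled knockout library held more than double the parental level. The log2 fold change was 1.36 ± 0.13 (adjusted p = 0.00182), the largest in size of the 10 genes, and 17.0% of all genes tested had a larger one. With the counts of its copies added to the gene, an alternative chosen after seeing the data, the log2 fold change was 1.23 and the gene stayed called. It also stayed called without parental library 1 (adjusted p = 0.0127) and without library 2 (adjusted p = 0.0168).

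Bnip3l, also known as NIX and needed for the clearance of mitochondria in maturing red blood cells, was at 175 and 166 CPM in clone 1, 179 and 176 CPM in clone 2, and 102 and 97.6 CPM in parental libraries. The libraries of both clones were high and close together. Labelled knockout over parental was 0.83 ± 0.087 on the log2 scale (adjusted p = 0.00257), and 0.83 with its copy added. The adjusted p was 0.0432 without parental library 1, and without library 2 the log2 fold change was 0.80 (adjusted p = 0.0596).

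Fundc1, a receptor of hypoxic mitophagy that is regulated by phosphorylation, was at 30.1 and 27.2 CPM in clone 1, 24.8 and 23.7 CPM in clone 2, and 28.6 and 29.2 CPM in parental libraries. Clone 1 straddled the parental level and clone 2 lay below it. Over both clones the difference on the log2 scale was -0.10 ± 0.12, with a 95% interval of -0.39 to 0.20 (adjusted p = 0.586).

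Phb2, prohibitin 2, is a scaffold of the inner mitochondrial membrane that binds Atg8 proteins once the outer membrane has ruptured. It was at 82.4 and 96.3 CPM in clone 1, 111 and 116 CPM in clone 2, and 99.0 and 99.1 CPM in parental libraries. Clone 1 was below the parental pair and clone 2 above it, and the pair of clone 1 lay far apart. Over both clones the log2 fold change was 0.07 ± 0.14, with a 95% interval of -0.28 to 0.41 (adjusted p = 0.756).

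**Figure D2:**
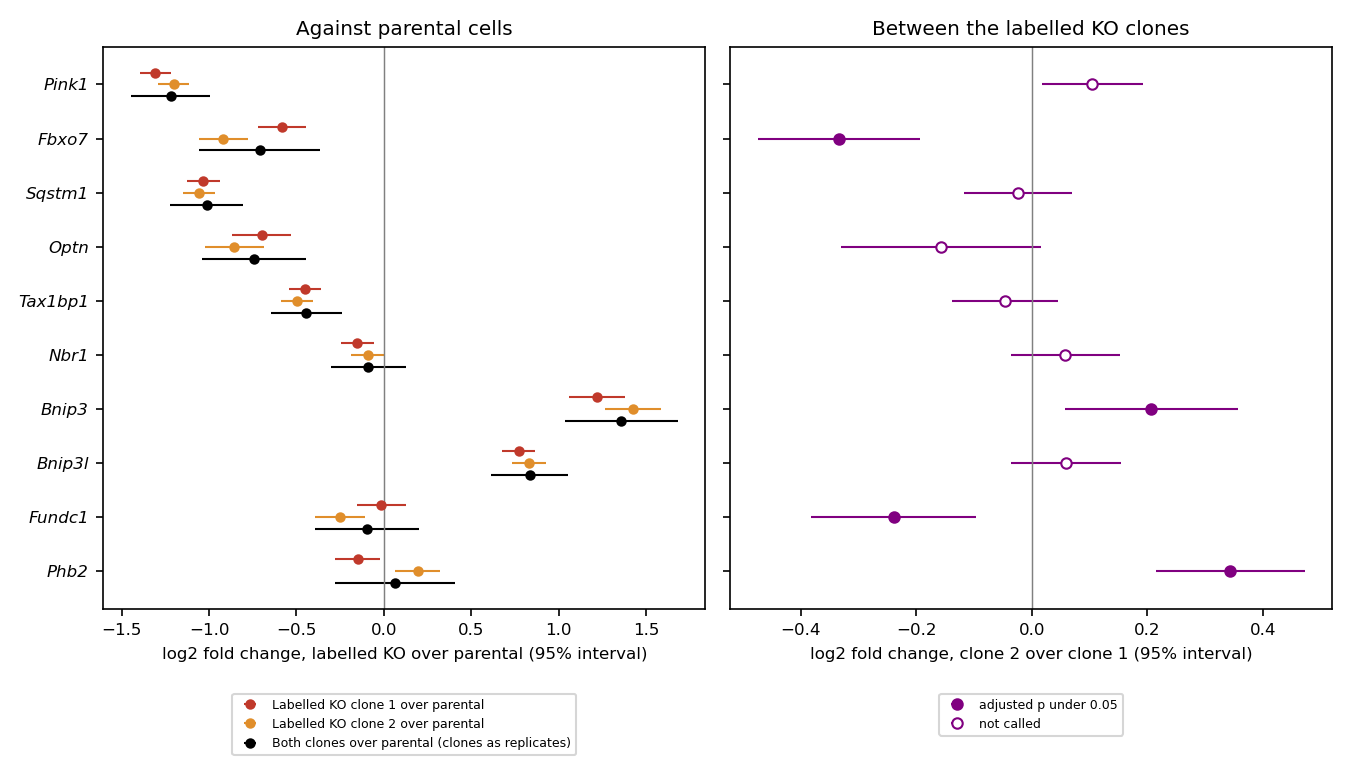
Left, log2 fold change of each of the 10 genes over parental cells with its 95% interval, for labelled knockout clone 1, labelled knockout clone 2 and both clones as replicates; right, log2 fold change of clone 2 over clone 1, filled where the adjusted p was under 0.05. Pink1 and Sqstm1 lie below -1 and Bnip3 above 1 on the left, and on the right Phb2 and Fbxo7 stand farthest from 0, at 0.34 and -0.33.

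Taken clone by clone in a fit of the 6 libraries, 2 of the 10 genes were higher and 7 lower in clone 1 than in parental cells. Of 23400 genes, 54.5% were called in that comparison, 27.3% as higher and 27.2% as lower. In clone 2, 3 of the 10 were higher and 6 lower, where 53.5% of all genes were called, 26.7% as higher and 26.8% as lower. Both comparisons use the same parental libraries. The 7 genes called with the clones as replicates were also called in clone 1 and in clone 2, with the same sign. The 3 others were called in at least 1 clone. Nbr1 was lower in clone 1 (-0.15 ± 0.044, adjusted p = 0.00848) and not called in clone 2 (-0.09 ± 0.044, adjusted p = 0.0899), although it was called there with DESeq2 size factors (adjusted p = 0.0438), with a floor of 5 CPM on the mean (0.0367) and without library 2 of clone 1 (0.0269). Fundc1 was not called in clone 1 (-0.01 ± 0.067, adjusted p = 0.881) and lower in clone 2 (-0.25 ± 0.067, adjusted p = 0.00462). Phb2 was lower in clone 1 (-0.15 ± 0.061, adjusted p = 0.0490) and higher in clone 2 (0.19 ± 0.060, adjusted p = 0.0130).

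These small calls were lost when some libraries were left out, in part with the size kept. For Phb2 in clone 1, leaving out its library 1 gave -0.02 (adjusted p = 0.716). Its call was also lost at -0.16 without either parental library (adjusted p = 0.138 and 0.132) and at -0.13 without either library of clone 2 (adjusted p = 0.119 and 0.117). With no filter on low counts it was -0.10 (adjusted p = 0.0928), and with DESeq2 -0.16 (adjusted p = 0.0565). Phb2 in clone 2 stayed at 0.20 without library 2 of that clone (adjusted p = 0.0542), parental library 1 (adjusted p = 0.0668) or parental library 2 (adjusted p = 0.0693). For Nbr1 in clone 1 the value was -0.08 without library 1 of that clone (adjusted p = 0.0846) and -0.15 without parental library 1 (adjusted p = 0.0791). For Fundc1 in clone 2 it was -0.18 without library 2 of that clone (adjusted p = 0.110) and -0.23 without parental library 2 (adjusted p = 0.0536).

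Set directly against each other, clone 2 and clone 1 differed in 4 of the 10 genes, 2 higher and 2 lower, where 36.4% of all genes were called, 16.1% as higher and 20.3% as lower. Phb2 was higher in clone 2 by 0.34 ± 0.061 on the log2 scale (adjusted p = 3.28e-04) and Bnip3 by 0.21 ± 0.070 (adjusted p = 0.0301). Fbxo7 was lower in clone 2, at -0.33 ± 0.066 (adjusted p = 8.18e-04), and so was Fundc1, at -0.24 ± 0.067 (adjusted p = 0.0104). Phb2 and Fbxo7 kept this call with each library left out in turn. Bnip3 lost it without library 2 of clone 1 (0.12, adjusted p = 0.209) or library 2 of clone 2 (0.20, adjusted p = 0.144), and with DESeq2 (0.20, adjusted p = 0.0573). Fundc1 lost it without library 1 of clone 1 (-0.15, adjusted p = 0.119) or library 2 of clone 2 (-0.19, adjusted p = 0.145). The other 6 genes were not called between the clones; the 95% interval was 0.02 to 0.19 for Pink1 (adjusted p = 0.0594), -0.12 to 0.07 for Sqstm1, -0.33 to 0.02 for Optn, -0.14 to 0.05 for Tax1bp1, -0.04 to 0.15 for Nbr1 and -0.04 to 0.15 for Bnip3l. Pink1 was called as higher in clone 2 under 4 of 13 alternatives, with upper quartile scaling (0.13, adjusted p = 0.0249), no filter (0.13, adjusted p = 0.0298), a floor of 5 CPM on the mean (0.14, adjusted p = 0.00957) and without library 1 of clone 1 (0.13, adjusted p = 0.0142). Bnip3l was called without library 1 of clone 1 (0.11, adjusted p = 0.0345), and Nbr1 without library 2 of clone 1 (0.11, adjusted p = 0.0247).

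The order of the genes by level also differed between the groups. Levels were set per length as RPKM (CPM per kilobase of all annotated exons). Sqstm1 was first in every group, at 70.3 ± 2.21 RPKM in clone 1, 69.2 ± 3.0 RPKM in clone 2 and 144 ± 0.934 RPKM in parental cells (SD, n = 2 each). In the clones Bnip3l came next, at 44.2 ± 1.57 RPKM in clone 1 and 46.0 ± 0.657 RPKM in clone 2, followed by Pink1 at 39.2 ± 0.236 and 42.1 ± 0.318 RPKM. In parental cells Pink1 was next after Sqstm1, at 96.9 ± 0.135 RPKM, and Bnip3l, at 25.9 ± 0.840 RPKM, stood below Nbr1 and Phb2. Nbr1 followed Pink1 in all 3 groups, at 37.2 ± 1.92, 38.7 ± 0.632 and 41.3 ± 0.580 RPKM in clone 1, clone 2 and parental cells.

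At the low end, Bnip3 was sixth in clone 1 (13.8 ± 1.20 RPKM) and clone 2 (15.9 ± 0.495 RPKM), and eighth in parental cells (5.93 ± 0.295 RPKM). Optn and Fbxo7 were the last of the 10 in every group, between 2.86 and 5.66 RPKM on average. In clone 1 the libraries of Bnip3 overlapped those of Tax1bp1, which was next, and those of Fbxo7 overlapped those of Optn. All other neighbours in the order had separate libraries in each group. Even so, in parental cells Bnip3l differed from Phb2 (26.6 ± 0.030 RPKM), and Bnip3 from Optn (5.66 ± 0.063 RPKM), by less than the SD of the libraries of Bnip3l and of Bnip3. The order depends on the length used: with the length of the principal transcript alone, an alternative chosen after seeing the data, Phb2 moved up to the place after Sqstm1 in the clones and after Pink1 in parental cells, and Nbr1 and Bnip3l both stood ahead of Pink1 in the clones and below it in parental cells.

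**Figure D3:**
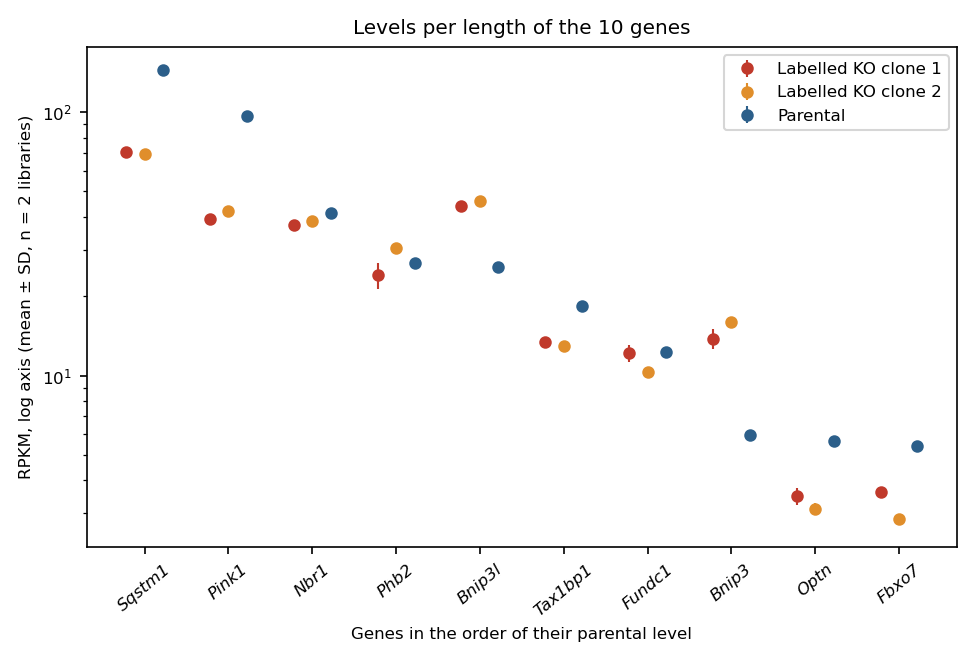
Level per length of the 10 genes (RPKM, log axis, mean ± SD of 2 libraries) in labelled knockout clone 1, labelled knockout clone 2 and parental cells, ordered by the parental level. Pink1 stands near Nbr1 in the clones and well above it in parental cells, and the clone points of Bnip3l and Bnip3 stand above their parental points.

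Summed by class, the 3 outer membrane receptors (Bnip3, Bnip3l and Fundc1) came to 70.1 ± 3.65 RPKM in clone 1, 72.3 ± 0.492 RPKM in clone 2 and 44.1 ± 0.967 RPKM in parental cells. The 4 ubiquitin-binding receptors (Sqstm1, Optn, Tax1bp1 and Nbr1) came to 124 ± 4.71, 124 ± 3.48 and 209 ± 1.16 RPKM in the same groups. The ratio of the outer membrane to the ubiquitin-binding sum was 0.601 and 0.529 in the libraries of clone 1, 0.597 and 0.569 in those of clone 2, and 0.213 and 0.208 in parental libraries. All 4 labelled knockout libraries had a ratio above both parental ones. This follows from the levels of single genes given above and is no separate result. Sqstm1 made up most of the fall of its class, and Bnip3l most of the rise of its class. With principal transcript lengths the mean ratio was 0.395 in clone 1, 0.410 in clone 2 and 0.147 in parental cells. The ratio of Bnip3 to Bnip3l was 0.313 ± 0.016 in clone 1, 0.347 ± 0.016 in clone 2 and 0.229 ± 0.0039 in parental cells.

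The genes around these 10 in the pathway were read from lists of genes by role. The counts of each list, here and below, stand beside 26.7% called over all genes tested, 13.0% as higher and 13.6% as lower. A list with a share of calls near or below that is not set apart from the rest. Among 15 tested genes of other receptors and adaptors, 1 rose and 3 fell, with a median of -0.03. Nlrx1, a mitochondrial receptor of the NOD-like family, had the largest fall at -2.25 ± 0.40 (adjusted p = 0.0145), with low levels of 0.906 CPM in clone 1, 0.398 CPM in clone 2 and 3.17 CPM in parental cells. Bcl2l1, which encodes the survival protein Bcl-xL, changed by -0.42 ± 0.087 (adjusted p = 0.0219) and Calcoco1, a receptor for autophagy of the endoplasmic reticulum, by -0.38 ± 0.090 (adjusted p = 0.0338). Fundc2, the paralogue of Fundc1, rose by 0.60 ± 0.14 (adjusted p = 0.0295).

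Of 32 tested regulators of the Pink1 and Parkin step, 2 rose, 3 fell and 27 were not called, with a median of -0.00531. Usp35, a deubiquitinase reported at mitochondria, averaged 27.8 ± 0.560 CPM in clone 1, 29.1 ± 0.915 CPM in clone 2 and 110 ± 2.39 CPM in parental cells, a log2 fold change of -1.92 ± 0.091 (adjusted p = 3.30e-04). Vdac2, an outer membrane channel that Parkin ubiquitinates, rose by 0.76 ± 0.10 (adjusted p = 0.00635), and Mfn1, a fusion GTPase of that membrane, by 0.53 ± 0.086 (adjusted p = 0.0106). Vcp, the ATPase that extracts ubiquitinated proteins, fell by 0.44 on the log2 scale (adjusted p = 0.0321). The remaining called gene, Src, a tyrosine kinase, was named after its values were seen; it changed by -0.34 (adjusted p = 0.0419).

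The Atg8 family, the autophagosome proteins that mitophagy receptors bind, had 5 genes tested, of which 3 fell and 2 were not called, with a median of -0.44. Map1lc3b averaged 181 ± 4.94 CPM in clone 1, 150.4 ± 0.851 CPM in clone 2 and 268 ± 5.56 CPM in parental cells, a log2 fold change of -0.66 ± 0.11 (adjusted p = 0.0122). Map1lc3a changed by -0.67 ± 0.12 (adjusted p = 0.0143) and Gabarap by -0.44 ± 0.098 (adjusted p = 0.0288). Gabarapl1 was at -0.28 ± 0.093 (adjusted p = 0.0822) and Gabarapl2 at 0.15 ± 0.097 (adjusted p = 0.311). All 3 calls of the family were lost without either parental library.

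**Figure D4:**
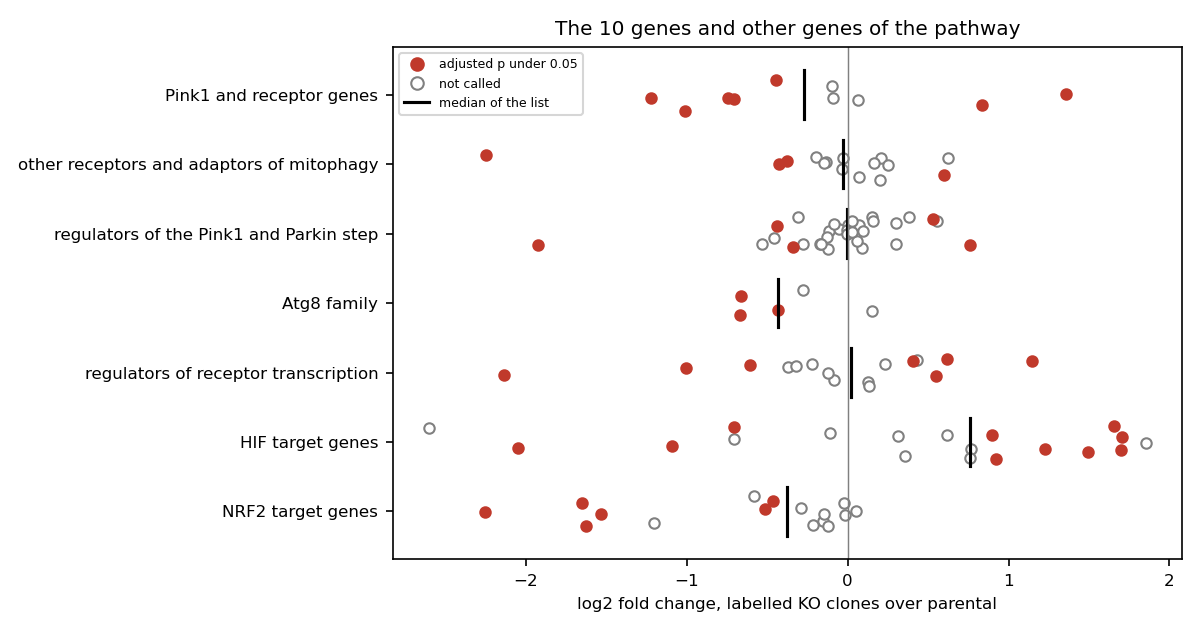
Log2 fold change of labelled knockout clones over parental cells (x axis) for Pink1 and the receptor genes and for 6 lists of related genes, 1 point per tested gene, filled where the adjusted p was under 0.05, with a bar at the median of each list. The 3 filled Atg8 points lie left of 0, the filled HIF target points lie on both sides, and the 6 filled NRF2 target points all lie left of 0.

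Regulators known to act on the transcription of these receptors were called in both directions, 4 higher and 3 lower of 16. Hif1a, the oxygen-sensitive factor known to induce Bnip3, averaged 527 ± 46.1 CPM in clone 1, 437 ± 11.9 CPM in clone 2 and 222 ± 2.64 CPM in parental cells, a rise of 1.15 ± 0.11 (adjusted p = 0.00214). Epas1, which encodes its relative HIF-2 alpha, was at 9.58 ± 0.892 CPM in clone 1, 16.1 ± 0.504 CPM in clone 2 and 58.1 ± 1.10 CPM in parental cells, a change of -2.14 ± 0.26 (adjusted p = 0.00446). Atf4, the factor of the integrated stress response, rose by 0.61 ± 0.089 (adjusted p = 0.00744) and Yy1 by 0.55 ± 0.095 (adjusted p = 0.0132). The remaining called genes, Tfeb, Foxo1 and Foxo4, were named after their values were seen. Tfeb changed by -1.01 (adjusted p = 0.0191), Foxo1 by -0.61 (adjusted p = 0.0366) and Foxo4 by 0.41 (adjusted p = 0.0259).

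Of 19 tested HIF target genes, 7 rose and 3 fell, with a median of 0.76. The clones differed here, with a median over parental of 0.48 in clone 1 and 1.07 in clone 2. Set against clone 1, clone 2 was higher in 14 of the 19 and lower in 4. Over all genes 16.1% were called as higher and 20.3% as lower in that comparison. Egln3, a prolyl hydroxylase that limits HIF, rose by 1.65 ± 0.18 (adjusted p = 0.00288), and Pdk1, a kinase that inhibits pyruvate dehydrogenase, by 1.70 ± 0.29 (adjusted p = 0.0137). Pdk1 averaged 60.8 CPM in clone 1, 108 CPM in clone 2 and 26.7 CPM in parental cells. Pfkfb3, a regulator of glycolysis, changed by -2.05 ± 0.10 (adjusted p = 3.73e-04) and the repressor gene Bhlhe40 by -0.71 ± 0.088 (adjusted p = 0.00458). Sqstm1 is itself known as a target of NRF2 and was left out of the list of NRF2 target genes; of the 16 in the list, 6 fell and 10 were not called, with a median of -0.38. Abcc1, an exporter of glutathione conjugates, changed by -1.65 ± 0.10 (adjusted p = 5.58e-04), Srxn1, sulfiredoxin, by -1.54 ± 0.15 (adjusted p = 0.00183), the cystine transporter gene Slc7a11 by -2.25 ± 0.32 (adjusted p = 0.00909) and Gclc, of glutathione synthesis, by -0.52 ± 0.11 (adjusted p = 0.0213).

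Of the 24 genes that the naming rule takes from these 6 lists, 23 were called, and 8 kept the call both without parental library 1 and without library 2: Nlrx1, Usp35, Hif1a, Epas1, Pfkfb3, Egln3, Abcc1 and Srxn1. Fundc2 was also not called without library 2 of clone 1 (adjusted p = 0.0576), nor Gabarap without library 1 of clone 2 (adjusted p = 0.0608). With no filter on low counts, Bcl2l1, Calcoco1, Vcp and Gabarap were not called, at adjusted p from 0.0549 to 0.0926. Gabarapl1, the gene of the 24 without a call, gained it under some settings. Among them were upper quartile scaling (-0.36, adjusted p = 0.0418) and a floor of 5 CPM on the mean (-0.34, adjusted p = 0.0380). In the fit of the 6 libraries it was lower in clone 1 (-0.24, adjusted p = 0.00177) and in clone 2 (-0.38, adjusted p = 2.80e-05).

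The genes whose pattern over the 6 libraries was most like that of Pink1 were Add3, Dock4, Atrn, Arsb and Fam43a. Likeness was the root mean square difference of log2 CPM after centring each gene, over 10503 genes that averaged 5 CPM or more, and it was 0.0239 for Add3, 0.0368 for Dock4, 0.0420 for Atrn, 0.0458 for Arsb and 0.0511 for Fam43a. Add3, which encodes a membrane skeleton protein, had 6321 and 6782 counts in clone 1, 6756 and 6304 in clone 2, and 15568 and 14121 in parental libraries, beside 6893 and 7154, 7418 and 6976, and 16591 and 15275 counts of Pink1. Of the 10503 genes, 62 lay within 0.1 of Pink1, so a step of about its size with a small difference between the clones was not its alone. Steps of another size fall outside that distance, so 62 does not count all genes with a step between parental and labelled knockout libraries.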

How the data were processed

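Total RNA was isolated on columns and made into cDNA libraries with either of a pair of kits, per the labels' protocols. The sources used here do not give which library had which, so kit and group cannot be told apart. The deposited table holds whole-number counts per gene, not normalized, made by the authors with STAR and featureCounts on GRCm38.p6 (mm10), per the submitters' processing notes; the sources used here do not give strand or multi-mapping settings. Every count column was matched to a sample by name. Gene coordinates and lengths came from GENCODE vM21 (GRCm38), which held 41869 of 42365 IDs.

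Counts were tested in R 4.3.3 with edgeR 4.0.16 (filterByExpr with a minimum count of 10, TMM, robust quasi-likelihood F test, Benjamini-Hochberg threshold of 0.05). To compare labelled knockout with parental, the 2 libraries of each clone were added, giving 2 clones against 2 parental libraries with 2 residual degrees of freedom, so the spread pools clone and parental differences. Each clone against parental, and clone 2 against clone 1, were contrasts of a fit of 6 libraries with 3 residual degrees of freedom; the fits are scaled separately, so the joint value need not lie between those of the clones. SE is the size of the log2 fold change divided by the square root of F. CPM used TMM-scaled library sizes. Totals of 58871554 to 69530032 counts set the counting precision, and reads are not independent molecules. Near-identical copies were found with blastn 2.17.0 (at least 200 aligned bases, at least 90% identity). The tests were also run on simulated counts with known changes.

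The 10 genes, the lists and the markers were chosen with earlier results of these data known, so no list is given a test. All 10 genes are named, up to 4 genes per list by smallest adjusted p, the 5 genes most like Pink1, and markers needed for the check. Alternatives were DESeq2 size factors, upper quartile scaling, no filter, a floor of 5 CPM on the mean, DESeq2 1.42.0, a replicate block, libraries as replicates, leaving out a clone or a library, and, chosen after seeing the data, copies added to the gene and principal transcript lengths. The targeted gene is not reported here, so its level was not set against the knockout labels.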

Additional observations from a re-analysis of the deposited data

Results flagged for a closer look

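Of the 10 genes, 4 differed between labelled knockout clone 2 and labelled knockout clone 1 in a direct test of that difference in edgeR's quasi-likelihood fit. The log2 fold change of clone 2 over clone 1 was 0.34 for Phb2, with 111 and 116 CPM in clone 2 and 82.4 and 96.3 CPM in clone 1, and 0.21 for Bnip3, with 35.3 and 36.9 CPM in clone 2 and 33.2 and 29.4 CPM in clone 1. It was -0.33 for Fbxo7, with 18.2 and 17.1 CPM in clone 2 and 22.4 and 22.2 CPM in clone 1, and -0.24 for Fundc1, with 24.8 and 23.7 CPM in clone 2 and 30.1 and 27.2 CPM in clone 1. Phb2 is the gene among the 10 for which the clones lay on opposite sides of the parental libraries.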

How the results depend on the processing

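For labelled knockout against parental, 7 of the 10 genes were called, with 3 to 7 when a single library was left out (3 without parental library 2 and 4 without parental library 1), and 6532 genes in all, with 2529 to 6714. All genes called came to 3795 with a floor of 5 CPM on the mean, 13213 with libraries as replicates, 13475 without clone 1 and 13495 without clone 2; without a clone, the other clone is assumed to vary like the parental libraries. The replicate block gave 13140 genes, and Nbr1 joined the called genes to make 8 (adjusted p = 0.0117), as it did with libraries as replicates (0.0121), without clone 1 (0.0454) and without clone 2 (2.87e-04). Without clone 1, Fundc1 (-0.23, adjusted p = 2.54e-04) and Phb2 (0.22, adjusted p = 2.61e-08) were also called, and without clone 2 Phb2 was called with the opposite sign (-0.118, adjusted p = 0.00513). For the block, same-numbered libraries did not deviate together (correlations of 0.0191, -0.00746 and -0.0152 across genes), so the numbers do not pair them. With the 5 CPM floor, calls were 8019 for clone 1 and 7847 for clone 2 against parental, beside 12752 and 12520 in the reported fit. Fewer genes were tested with that floor, 11019 rather than 23400 per clone and 11025 rather than 24506 for labelled knockout against parental. A larger share of the genes tested was thus called in each of these comparisons. Between the clones, 4 of the 10 genes were called, with 2 to 5 when a library was left out (2 without library 2 of clone 2). The sign also turned, mostly among values near 0, for Phb2 over both clones (-0.00919 with upper quartile scaling, and -0.0116 to 0.0865 with a library left out), Nbr1 (0.00596 with no filter), Fundc1 over both clones (0.0143 without clone 2) and in clone 1 (0.0304 with no filter, and -0.0690 to 0.0747 with a library left out) and Sqstm1 of clone 2 over clone 1 (0.00491 with upper quartile scaling, 1.35e-04 with no filter, 0.0118 with the 5 CPM floor, and -0.0479 to 0.0427 with a library left out); also the markers Kdr (-0.121 without clone 1) and Col1a1 (0.0320 without clone 2). The cause was not tested.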
